A study of Mus musculus with 2 samples.

Results

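The genes described here are 10 acid-base genes of the intercalated cells of the renal collecting duct: the anion exchangers Slc4a1, Slc4a9, Slc26a4 and Slc26a7, the ammonia channels Rhbg and Rhcg, the transcription factor Foxi1, and the proton pump subunits Atp6v1b1, Atp6v0d2 and Atp6v1g3. They were chosen by name, for their known roles and with earlier results of these data in view, among 26571 genes on the array. All 10 had a probe, and 9 were measured, among 16693 measured genes. Kidney RNA came from male CD-1 mice given, from 7 weeks of age, an AIN-93G diet with 0.2% adenine by weight for 1 week, either together with 2% of the phenolic compound HMPA, in full 3-(4-hydroxy-3-methoxyphenyl)propionic acid, or alone. The titles of the samples differ from this in age, 12 weeks, and mention 5 mice, but leave unsaid how these were divided over the diets or pooled. The adenine diet serves as a mouse model of chronic kidney disease, in which crystals block and injure tubules. Both conditions carried adenine, and no kidney without adenine was on the arrays, so the ratios do not show how far a gene lay from its normal level.

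The HMPA sample was hybridised together with the adenine sample on each of 2 arrays. HMPA carried Cy5 on array 1 and Cy3 on array 2, and adenine alone carried the other dye. Because no label ties an array to animals or extracts of its own, the arrays were treated as repeat hybridisations of a single RNA sample for each diet. No p-value can be given, and the spread between arrays says nothing of the spread between mice. Every ratio below is a log2 ratio of HMPA with adenine over adenine alone, and ± gives how far either array lay from their mean (n = 2 arrays). A gene was called higher or lower by size: 2-fold or more on average, with 1.5-fold or more on each array and no change of direction between them. In a whole kidney, fewer cells of a type and less RNA per cell cannot be told apart.

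Intercalated cells keep the acid-base balance of the body from the connecting tubule and collecting duct. Type A cells secrete acid into the urine through a proton pump in the apical membrane and return bicarbonate to the blood through Slc4a1. Type B cells work in the opposite sense and secrete bicarbonate through Slc26a4, also called pendrin. Foxi1 is a forkhead transcription factor that mice need to form intercalated cells, and it is known in mouse to act on the genes of several exchangers and pump subunits. Rhbg and Rhcg carry ammonia across the basolateral and apical membranes, the step by which most acid leaves as ammonium.

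Sequences are shown for the probes whose values decide how much can be said of a gene. The Foxi1 probe is the sole probe of that gene, and the Atp6v1b1 probe is the sole probe of the pump's B1 subunit. Atp6v1g3 had a bright and a dim probe on the array. Slc26a7 had no bright probe, but a probe near background and a dimmer one, called its dim probe here. Each was read from the deposited scanner files and is written 5′ to 3′ in lower case, with no base marked.
Foxi1: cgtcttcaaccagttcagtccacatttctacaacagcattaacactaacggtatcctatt
Atp6v1b1: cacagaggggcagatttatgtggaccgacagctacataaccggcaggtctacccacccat
Atp6v1g3, bright probe: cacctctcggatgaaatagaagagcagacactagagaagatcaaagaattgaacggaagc
Slc26a7, dim probe: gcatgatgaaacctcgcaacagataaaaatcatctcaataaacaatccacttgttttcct

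On build mm9, the build of the scanner files, the Foxi1 probe lies at chr11:34105535-34105594 on the minus strand and the bright Atp6v1g3 probe at chr1:140184382-140184441 on the plus strand. The 60 bases of the Atp6v1b1 probe span 979 bases of the genome, at chr6:83706880-83707858 on the plus strand. The 60 bases of the dim Slc26a7 probe span 3360 bases, at chr4:14446625-14449984 on the minus strand, so both probes cross at least 1 intron. No annotation on mm9 was used, so exon or UTR is not assigned to the other probes.

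All 9 measured genes were well above background in all 4 channels, so none entered through its HMPA signal alone. Of them, 5 were called higher with HMPA and 0 lower. Over all 16693 measured genes, 6.64% were called higher and 7.72% lower. The 5 were Slc4a1 (6.12-fold), Rhbg (5.72-fold), Slc26a4 (5.34-fold), Atp6v1g3 (3.34-fold) and Rhcg (2.58-fold). The other 4, Slc26a7, Slc4a9, Atp6v1b1 and Atp6v0d2, had ratios between 0.12 and 0.23. The median of the 9 genes was 1.37, against −0.04 over all measured genes. The first 3 genes also passed a stricter size of 4-fold on average and 2-fold on each array, which 1.53% of all measured genes passed as higher.

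**Figure D1:**
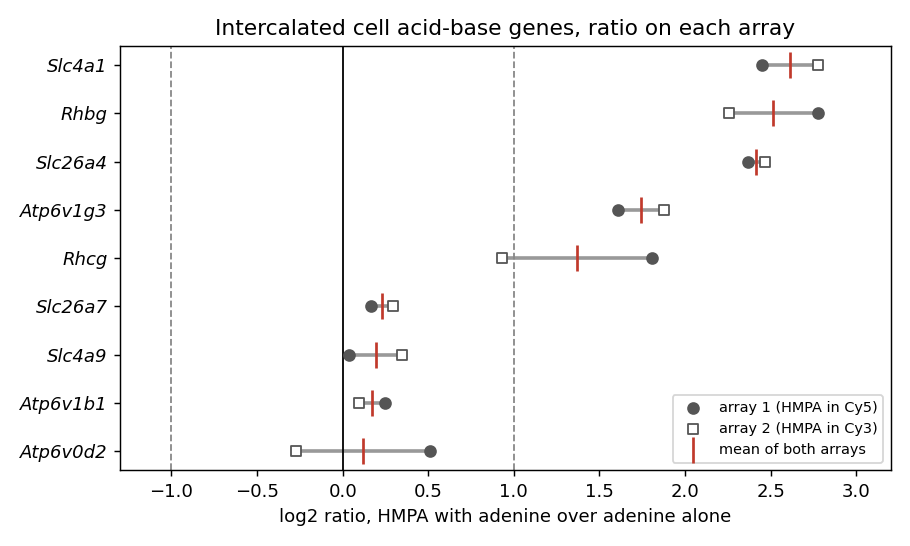
Log2 ratio of HMPA with adenine over adenine alone for the 9 measured genes, on array 1 (filled circles), on array 2 (open squares) and as the mean (red bars), with dashed lines at 2-fold. The 5 upper genes lie between 1.37 and 2.61 and the 4 lower ones between 0.12 and 0.23.

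The means left a gap of 1.14 between Rhcg and Slc26a7. The lowest array value of the 5 called genes was 0.93, for Rhcg on array 2, and the highest of the other 4 was 0.51, for Atp6v0d2 on array 1. With the ratios of the scanner software the gap was narrower, with Rhcg at 1.42 and Slc26a7 at 1.18. With the normalised ratios used here, the array values of Slc4a1 and Rhbg overlapped, and so did those of Rhbg and Slc26a4. Slc26a4 lay above Atp6v1g3 on both arrays. Atp6v1g3 and Rhcg overlapped, and so did each neighbouring pair among the 4 lower genes. Among all measured genes, the 5 called genes stood between the 96.2 and 99.4 percentiles and the other 4 between the 64.9 and 72.6 percentiles. The order of the first 3 genes depended on the processing. With the scanner software's ratios, Slc4a1 (3.46 and 3.61 on arrays 1 and 2), Rhbg (2.85 and 2.87) and Slc26a4 (2.58 and 2.53) did not overlap.

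Slc4a1 encodes the chloride-bicarbonate exchanger of the basolateral membrane of type A cells, also known as AE1 or band 3. Its spot signal in scanner units was 368.5 for HMPA and 108 for adenine alone on array 1, and 751 for HMPA and 85.6 for adenine alone on array 2. HMPA was the brighter channel in either dye, over local backgrounds of 21 to 26.5. The normalised ratio was 2.45 on array 1 and 2.78 on array 2, with a mean of 2.61 ± 0.17. The probe lies at chr11:102210256-102210315 on the minus strand.

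Slc26a4 encodes pendrin, the apical chloride-bicarbonate exchanger of type B cells. Signals were 2642 for HMPA and 861 for adenine alone on array 1, and 5344 for HMPA and 854 for adenine alone on array 2. Its ratios of 2.37 and 2.47 gave a mean of 2.42 ± 0.05, the smallest distance between arrays of the 9 genes with this processing. With each array centred on its median in place of loess, they were 1.84 and 2.56. The probe lies at chr12:32204766-32204825 on the minus strand.

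Of the exchangers of each cell type, 1 was thus called higher and the other was not called. Slc26a7, a chloride-bicarbonate exchanger of type A cells in the outer medulla, had a ratio of 0.17 on array 1 and 0.29 on array 2 (mean 0.23 ± 0.06). Its brighter probe, at chr4:14430339-14430398 on the minus strand, gave signals of 33.8 for HMPA and 50.1 for adenine alone on array 1, and 58.9 for HMPA and 35.7 for adenine alone on array 2, so the Cy3 channel was the brighter on each array. The second probe, printed above, was not well above background in any of the 4 channels. Slc4a9, the basolateral AE4 of type B cells, had ratios of 0.04 and 0.35 (mean 0.19 ± 0.16). Its signals were 49.6 for HMPA and 92.9 for adenine alone on array 1, and 108 for HMPA and 77.4 for adenine alone on array 2. For both genes the direction of the raw difference turned with the dye.

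Of the ammonia channels, Rhbg, the basolateral one, had a ratio of 2.78 on array 1 and 2.25 on array 2 (mean 2.51 ± 0.26). Its signals were 1056 for HMPA and 261 for adenine alone on array 1, and 1632 for HMPA and 311 for adenine alone on array 2. Rhcg, found in the apical and basolateral membranes, had ratios of 1.81 and 0.93 (mean 1.37 ± 0.44), the largest distance between arrays of the 9 genes with this processing. Its signals were 1798 for HMPA and 878 for adenine alone on array 1, and 2759 for HMPA and 1312 for adenine alone on array 2. HMPA was brighter for both channels on each array. On array 2 alone Rhcg did not reach 2-fold, while the scanner software's ratios for it were 1.59 on array 1 and 1.24 on array 2. The Rhbg probe lies at chr3:88047265-88047324 and the Rhcg probe at chr7:86738278-86738337, both on the minus strand.

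**Figure D2:**
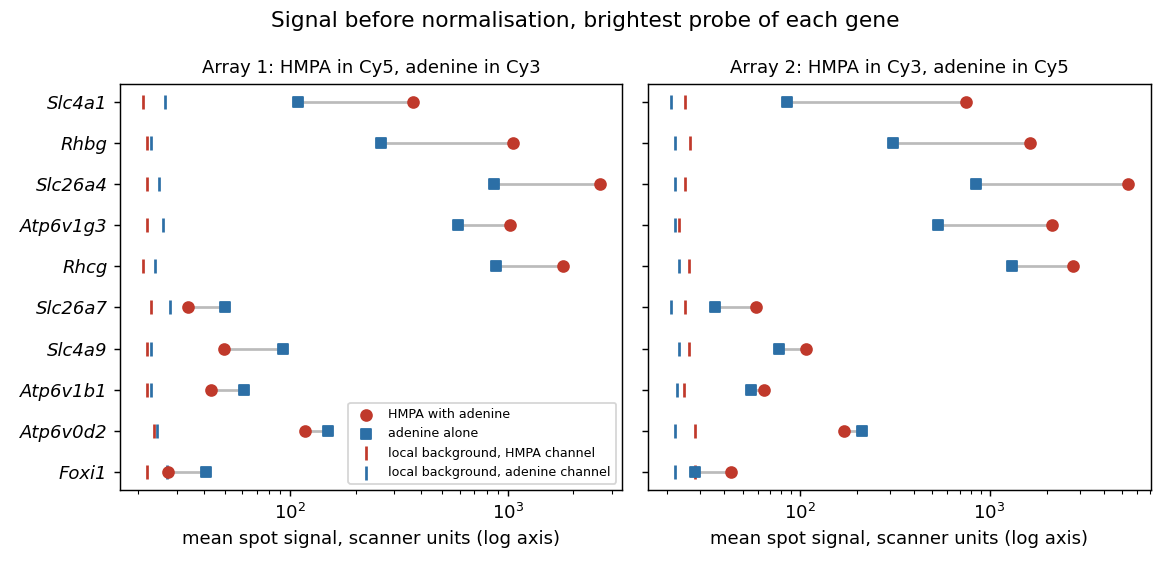
Mean spot signal in scanner units on a log axis, before normalisation, for HMPA with adenine (red circles) and adenine alone (blue squares) on each array, with the local background of each channel as small bars. The 5 called genes are brighter for HMPA on both arrays, while Foxi1 lies near its background.

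The proton pump has a cytosolic V1 part that splits ATP and a membrane V0 part that carries protons, and several subunits have an isoform typical of intercalated cells. Atp6v1g3, the G3 isoform of the V1 stalk, had ratios of 1.61 and 1.88 (mean 1.74 ± 0.13). Its bright probe gave signals of 1021 for HMPA and 589 for adenine alone on array 1, and 2135 for HMPA and 534 for adenine alone on array 2. The other Atp6v1g3 probe was not well above background in any channel, so the value rests on 1 probe. Atp6v1b1, the B1 isoform of the ATP-binding ring, had ratios of 0.25 and 0.10 (mean 0.17 ± 0.07). Its signals were 43 for HMPA and 61.1 for adenine alone on array 1, and 65.2 for HMPA and 55.4 for adenine alone on array 2, over backgrounds of 22 to 24.5, and here too the raw direction turned with the dye.

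Atp6v0d2, the d2 isoform of the V0 part, had ratios of 0.51 on array 1 and −0.27 on array 2 (mean 0.12 ± 0.39). With this processing, it was the single measured gene of the 9 whose sign differed between the arrays. With the scanner software's ratios it was 0.60 on array 1 and 0.06 on array 2. Signals were 117 for HMPA and 149 for adenine alone on array 1, and 172 for HMPA and 212 for adenine alone on array 2. HMPA was thus the dimmer channel in either dye before normalisation. With median centring the ratios were −0.0005 on array 1 and −0.38 on array 2, so the sign depended on the processing. Its probe lies at chr4:19804304-19804363 on the minus strand. In mouse, Atp6v0d2 is also known from osteoclasts and macrophages, and their markers were measured beside it. Of 16 macrophage and osteoclast markers, 11 were called lower and 0 higher, or 1 higher with the scanner software's ratios, with an offset of 10, without background correction or on array 2 alone. The summed normalised signal of these markers was 7631 to 9899 with HMPA and 45314 to 49785 with adenine alone, with the complement gene C1qc at −2.47 ± 0.08. Osteoclast genes went several ways: the protease Ctsk (−1.88 ± 0.33) and the calcitonin receptor Calcr (−1.32 ± 0.09) were lower, while Acp5 (0.94 ± 0.21), Oscar (0.15 ± 0.12), Ocstamp (−0.06 ± 0.05), Mmp9 (−0.49 ± 0.23) and Dcstamp (−0.91 ± 0.28) were not called. Their part in the Atp6v0d2 ratio was not tested.

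Foxi1 gave no usable ratio. Its signal was 27.5 for HMPA and 40.9 for adenine alone on array 1, and 43.3 for HMPA and 28.1 for adenine alone on array 2, over backgrounds of 22 to 28. It was well above background in 1 of 4 channels, the HMPA channel of array 2. Its ratio was 0.10 and 0.04 with the offset of 50, against 1.63 and 1.11 by the scanner software, so its size depended on the processing. A difference in Foxi1 was therefore not measurable at this signal.

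The 4 measured genes that were not called were also the 4 dimmest of the 9. Their mean log2 signal after background correction was 6.12 to 7.52, against 8.03 to 10.84 for the 5 called genes. Of all measured genes dimmer than the median of 8.13, 2.5% were called higher, and of those at or above it 10.8%. All 4 members above that median were called, and 1 of 5 below it, Slc4a1. The offset of 50 added to each channel draws the ratios of dim spots toward 0 by construction. With an offset of 10, Slc4a1 was 3.19, Slc26a7 0.54 and Atp6v1b1 0.34. With the ratios of the scanner software, Slc4a1 was 3.54, Slc26a7 1.18, Atp6v1b1 0.63, Slc4a9 0.52 and Atp6v0d2 0.33, and Slc26a7 passed the size as the sixth gene. With each array centred on its median in place of loess, Slc4a9 (−0.04) and Atp6v0d2 (−0.19) changed sign, while the median of all genes stood at −0.22.

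**Figure D3:**
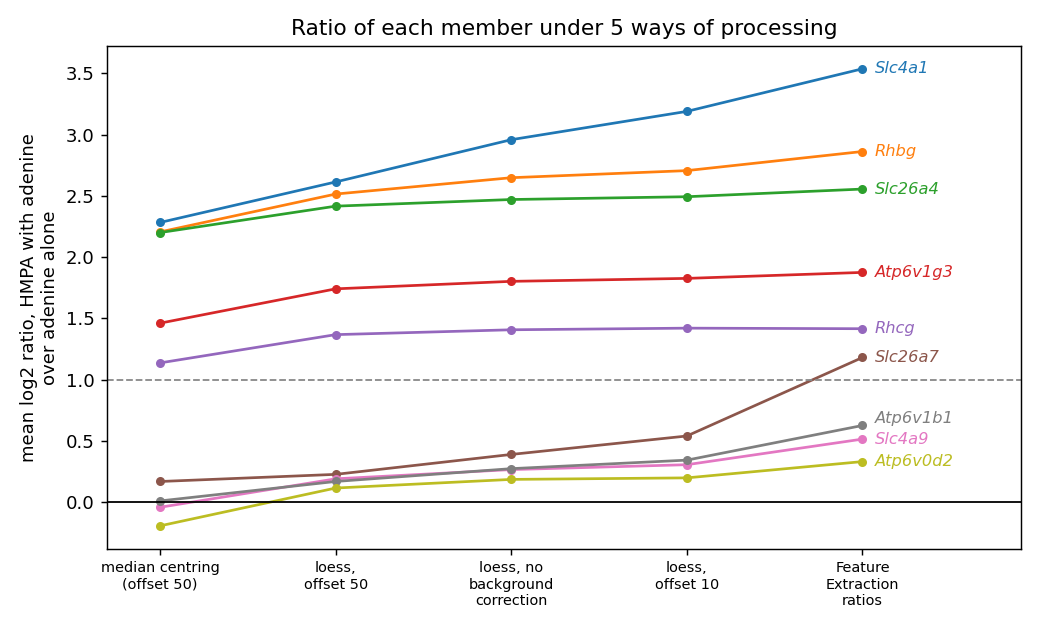
Mean log2 ratio of HMPA with adenine over adenine alone for each measured gene (coloured lines) under 5 ways of processing, with a dashed line at 2-fold. The 5 called genes lie above 1 in all 5, and Slc26a7 crosses the line with the scanner software's ratios.

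Slc4a1 is also the band 3 protein of red blood cells, and erythroid transcripts moved with it. Of 17 erythroid markers on the array, 10 were measured, with 5 called higher, 0 lower and a median ratio of 1.16. The median was 0.07 with the 7 dim ones included, whose ratios the added offset draws toward 0. Among the 7 markers above background in all 4 channels it was 2.47. It was 1.73 with an offset of 10 (7 higher, 0 lower) and 2.30 with the scanner software's ratios (7 higher, 1 lower). The globins Hbb-bt (4.62 ± 0.24), Hba-a1 (3.64 ± 0.59) and Hba-a2 (3.48 ± 0.04) were higher, as were Alas2, which starts heme synthesis in red cell precursors (2.47 ± 0.26), and the transferrin receptor Tfrc (1.39 ± 0.10). Globin probes may bind transcripts of close paralogs. The summed normalised signal of the 10 was 79532 to 83296 with HMPA and 4966 to 6882 with adenine alone. The 7 dim markers, among them Sptb, Rhag and Ahsp, were not well above background. Products of these 3 sit beside band 3 in the red cell membrane or stabilise haemoglobin. Epb42, which binds band 3, was at 0.02 ± 0.07, but it was well above background in only 1 of its 2 adenine channels. The part of erythroid RNA in the Slc4a1 ratio was not tested.

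A wider list of 25 intercalated cell genes, none of them among the 10, did not move as a block. Of 23 measured, 4 were called higher and 1 lower, with a median of 0.24. Atp6v1c2, the C2 isoform of the pump's stalk (1.82 ± 0.21), the homeobox factor Hmx2 (1.33 ± 0.26), the membrane-bound carbonic anhydrase Car12 (1.27 ± 0.12) and the adhesion protein Hepacam2 (1.04 ± 0.10) were higher. A second, dimmer probe gave 0.06 for Hmx2 and 0.55 for Car12. Lgals3, encoding galectin 3, was lower (−1.68 ± 0.55), and macrophages also make it in quantity. The cytosolic carbonic anhydrase Car2 (0.24 ± 0.20), the a4 pump subunit Atp6v0a4 (0.42 ± 0.10), the transcription factor Tfcp2l1 (−0.07 ± 0.09) and Kit (−0.79 ± 0.12) were not called. Median centring gave 2 higher genes in place of 4, and so did averaging the kept probes of each gene.

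Of the 20 other proton pump subunits, not all of them widely expressed, 0 were called in either direction, and their median was 0.42. Ratios lay between −0.56 for Tcirg1, the a3 subunit of osteoclasts, and 0.95 ± 0.14 for Atp6v1c1. Setting the isoform of intercalated cells beside its widely expressed counterpart, G3 was 1.74 against 0.57 ± 0.17 for G1 (Atp6v1g1), and C2 was 1.82 against 0.95 for C1. The array values of each pair did not overlap. With this processing, the order was opposite for B1 (0.17) against B2 (Atp6v1b2, 0.88 ± 0.0039), again without overlap. The B1 probe lay near background, where the added offset draws ratios toward 0. B1 was 0.34 with an offset of 10 and 0.63 with the scanner software's ratios. Whether B1 lay below B2 apart from this effect was not tested. The array values of d2 (0.12 ± 0.39) overlapped with those of d1 (Atp6v0d1, 0.51 ± 0.18). Those of a4 (Atp6v0a4, 0.42 ± 0.10) overlapped with those of a2 (Atp6v0a2, 0.28 ± 0.06) and lay above those of a1 (Atp6v0a1, −0.02 ± 0.22). Dimmer probes gave 0.70 for a4, and 0.76 and 0.67 for a2. Median centring put the median of the 20 other subunits at 0.18. Array 1 by itself had 2 of these subunits past the size as higher. An offset of 10, no background correction and the scanner software's ratios each gave 1.

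Other carriers of the SLC4 and SLC26 families went both ways. Of 16 on the array, 10 were measured, with 2 called higher, 1 lower and a median of 0.12. Slc26a1, a sulfate and oxalate exchanger (1.95 ± 0.50), and Slc4a4, the sodium bicarbonate cotransporter of the proximal tubule (1.86 ± 0.05), were higher. Slc4a7, another sodium bicarbonate cotransporter, was lower (−1.31 ± 0.24), with its other 3 kept probes at −0.62, −0.17 and −0.05. Slc4a2, the widely expressed AE2, was at −0.57 ± 0.02. Of 9 genes of ammonia production and transport, 3 were called higher and 0 lower (median 0.47): the sodium-proton exchanger Slc9a3 (1.65 ± 0.29), the thick limb cotransporter Slc12a1 (1.22 ± 0.10), whose dimmer probe gave 0.10, and the glutamine transporter Slc38a3 (1.09 ± 0.14). The mitochondrial enzyme Glud1, which releases ammonia from glutamate, was not called (0.47 ± 0.11).

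**Figure D4:**
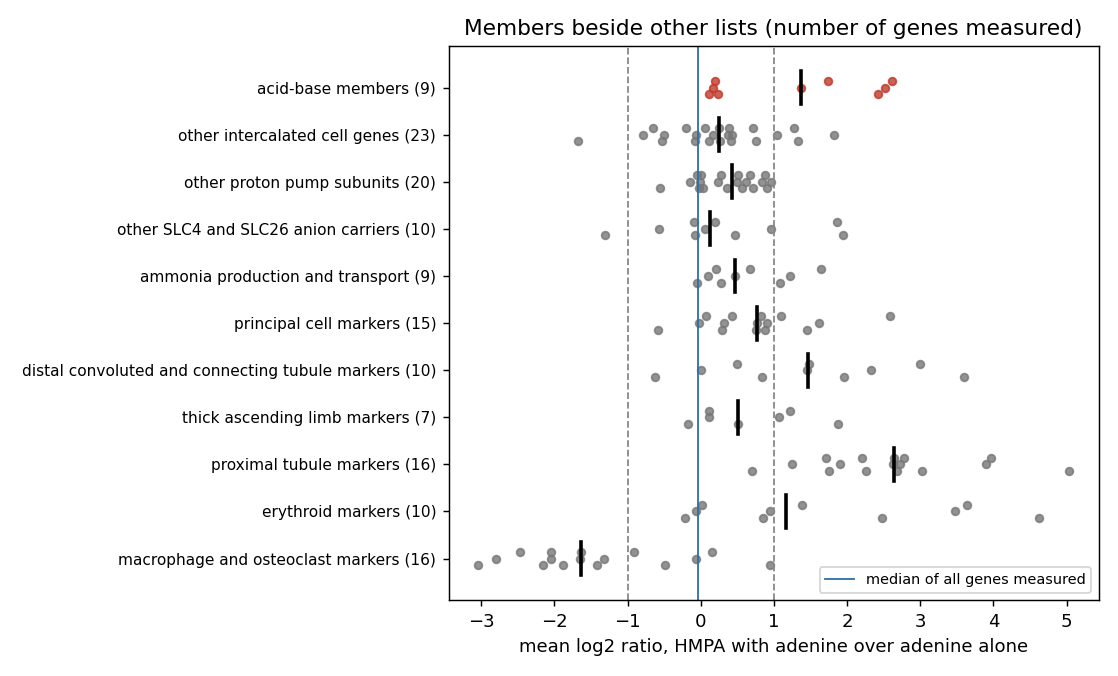
Mean log2 ratio of HMPA with adenine over adenine alone for each measured gene of the 10 acid-base members and of the other lists, with the median of each list (black bars), the median of all measured genes at −0.04 (blue line) and dashed lines at 2-fold. The members' median of 1.37 lies between those of the erythroid list (1.16) and the distal convoluted and connecting tubule list (1.46).

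Among markers of neighbouring cells, some were called higher and many were not called. Of 15 principal cell markers, the other main cell of the collecting duct, 4 were called higher and 0 lower (median 0.77). The water channels Aqp3 (2.59 ± 0.30) and Aqp4 (1.61 ± 0.12, with other probes at 0.38 and 0.40) and the ubiquitin ligase Rnf186 (1.45 ± 0.09) were farthest from 0. The other 11 were not called, with the sodium channel subunit Scnn1a at −0.03 ± 0.12 and the transcription factor Gata3 at −0.59 ± 0.11. Array 2 alone gave 8 such genes, array 1 alone 3, and the scanner software's ratios 9. Of 10 markers of the distal convoluted and connecting tubule, 6 were called higher and 0 lower (median 1.46), with Egf at 3.60 ± 0.01 and the uncalled calcium channel Trpv5 at −0.63 ± 0.01. Of 7 thick limb markers, 3 were higher and 0 lower (median 0.51), with the claudin Cldn10 at 1.87 ± 0.11, while uromodulin, Umod (0.11 ± 0.12), and another claudin, Cldn16 (−0.18 ± 0.17), were not called. All 16 proximal tubule markers, the main cells of the kidney cortex, were measured, and 15 were higher and 0 lower (median 2.63), with Slc7a13 at 5.03 ± 0.0026. The part of shifts in the makeup of the tissue in the members' ratios was not tested.

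Since Foxi1 acts on several of these genes, the 250 bases before the start of each gene were searched for the forkhead letters TGTTTAC and their reverse complement GTAAACA. Promoters came from RefSeq on build GRCm38.p6, and 5 of the 10 genes matched an entry: Atp6v1b1, Atp6v1g3, Foxi1, Rhcg and Slc26a4. The letters were in 1 of these 5, Atp6v1b1, with the first base at −98 from the start, and in 3.17% of 32851 such windows. The shorter core TGTTT or AAACA, which the longer letters contain, was in 4 of the 5 and in 46.4% of all windows. The window with the letters (in capitals) and that of the called exchanger Slc26a4, with none, are printed for comparison.
Atp6v1b1: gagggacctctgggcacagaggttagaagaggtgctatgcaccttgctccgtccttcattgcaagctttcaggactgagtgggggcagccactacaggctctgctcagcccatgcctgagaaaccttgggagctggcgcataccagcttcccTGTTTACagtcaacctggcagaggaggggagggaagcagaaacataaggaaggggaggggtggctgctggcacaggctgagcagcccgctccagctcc
Slc26a4: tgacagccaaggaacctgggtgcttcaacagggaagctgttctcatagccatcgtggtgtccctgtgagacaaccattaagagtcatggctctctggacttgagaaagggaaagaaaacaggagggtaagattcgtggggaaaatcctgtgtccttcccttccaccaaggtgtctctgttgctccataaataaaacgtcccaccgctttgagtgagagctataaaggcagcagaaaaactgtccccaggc

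The Atp6v1b1 window lies at chr6:83742767-83743016 on the plus strand and the Slc26a4 window at chr12:31559985-31560234 on the minus strand, both on GRCm38.p6. Only 1 of the 5 genes had the longer letters, Atp6v1b1, and its signal lay near background. Ratios of genes with and without the letters can therefore not be compared. A match in these letters is a description and not a binding site.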

How the data were processed

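Per the labels' protocols, kidney RNA isolated with QIAzol was turned into cRNA carrying Cy3 or Cy5. Per the file headers, the arrays were quantified with Agilent Feature Extraction 12.2.0.7, while the submitters' processing notes name 9.5. Deposited spot and background signals are intensity values without normalization, per the file headers, and flags of 0 or 1, labelled as other here, mark spots well above background. The deposited log10 ratio, red over green, is background-subtracted and dye-normalized per the file headers, and the value table repeats it rounded.

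Of 43379 gene spots per array, 281 and 297 were marked unreliable and 0 were saturated. Between 57.9% and 67.9% were well above background per channel. Repeat spots of 245 probes had a median SD of 0.10 (log2) on array 1 and 0.09 on array 2.

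Signals were corrected with limma 3.58.1 (R 4.3.3; normexp, offset 50), normalised by loess within arrays with control and unreliable spots at weight 0, and turned to HMPA over adenine alone. Other steps used Python 3.11.15. A probe was kept if the HMPA channels, or the adenine channels, of the 2 arrays were both well above background (25132 of 41174), and the brightest kept probe stood for a gene. Names followed accessions in a RefSeq table (21361 kept probes), symbols (1939) or older symbols (8), and 1824 kept the file's name. The procedure was tested on simulated data in which only spots brighter than the median carried known differences. Recovery of differences at dim spots was not tested. Summed signals are after loess and quantile scaling of average intensity between arrays.

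All 10 members were described. Of each list, the 3 genes farthest from 0 among those called could be named, or 2 where none was. Any erythroid, macrophage or osteoclast gene could be named too. Car12, Hepacam2, uncalled genes of the other lists and pump isoform pairs were chosen after their values were seen. Members and lists were chosen with earlier results of these data known. Alternatives, given at the end, changed background correction, scaling, filter, probe choice, arrays and size.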

Additional observations from a re-analysis of the deposited data

How the results depend on the processing

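No paired analysis was possible because each array already sets HMPA against adenine alone and no label gives the 2 arrays separate animals or extracts. The count of members called higher was 5 with median centring, with an offset of 10 and without background correction, and 6, Slc26a7 being added, with the ratios of Feature Extraction or of the deposited value table. It was 4 to 5 with 1 array left out, since Rhcg on array 2 alone was at 0.93. At 4-fold it was 3. No member was called lower under any of them. Changing the filter or averaging kept probes could not alter the 9 measured members, which each had 1 kept probe above background in all 4 channels. The members' median was 0.93 to 1.61 with 1 array left out, and 0.80 without the filter on dim probes, which added Foxi1 (0.07, against 1.63 and 1.11 on the 2 arrays by Feature Extraction). Over all genes, 1109 were called higher and 1289 lower, against 2043 and 2459 by Feature Extraction and 2040 and 2457 by the value table. Median centring gave 749 and 1973. With loess kept, an offset of 10 gave 1487 and 1786, and no background correction gave 1315 and 1555. The share of higher calls thus depended on the scaling and on the background correction and offset. No called member changed sign. Signal over background limits what can be said of Foxi1, Slc26a7, Slc4a9 and Atp6v1b1, and the number of arrays limits every value.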
